A study of Rattus norvegicus with 2 samples.

Results

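The mRNAs of 8 iron handling genes, *Fth1*, *Ftl1*, *Tf*, *Tfrc*, *Slc40a1*, *Slc11a2*, *Cp* and *Ireb2*, were followed through the cell types of the rat hypothalamus. The genes were listed by name, with earlier results of these data known, and they stand under 9 identifiers among the 28906 symbols and 32883 identifiers of the files. All 8 were detected in both libraries. Over the kept cells their totals ran from 345 UMIs (unique molecular identifiers, each standing for 1 captured mRNA molecule) for *Cp* in the Control library to 265291 UMIs for *Fth1* in the same library. *Slc40a1* has 2 identifiers, of which ENSRNOG00000049995 held 0 UMIs in either library and ENSRNOG00000003872 held all of them.

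Hypothalamic cells were measured in 1 Control and 1 SC300 library, each made from the tissue of 3 pooled female Sprague Dawley rats killed at PND 29, an age the labels give as 4 weeks. From PND 0.5 on, SC300 rats bore a silicone capsule. By the study's methods it held 300 µg of estradiol benzoate (EB, an estrogen ester) in sesame oil, and the label of the library names EB, but the design text deposited with the data mentions only the oil. The methods and the label are followed here, and every SC300 to Control value rests on that reading. According to the study's methods the Control rats carried a capsule with oil only, whereas the labels call them intact. The tissue was a hypothalamic piece that held the anteroventral periventricular and arcuate nuclei, dissociated with collagenase and run on a droplet 3′ kit. Since each group was 1 library, no test between groups was possible: the treatment, the pools of rats and the preparation of the libraries cannot be told apart. All 95% intervals given here cover counting error only.

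Iron enters most cells as ferric iron bound to transferrin (*Tf*), which is taken up by the transferrin receptor (*Tfrc*) and leaves the endosome through the divalent metal transporter (*Slc11a2*). Surplus iron is stored in ferritin, a shell of heavy chains (*Fth1*), which oxidise iron, and light chains (*Ftl1*), which help to form the mineral core, and it leaves the cell through ferroportin (*Slc40a1*) aided by ferroxidases such as ceruloplasmin (*Cp*). Iron regulatory protein 2 (*Ireb2*) binds ferritin and transferrin receptor mRNAs when iron is low. In the brain, oligodendrocytes and microglia are known as iron-rich cells, and the endothelium is the site of iron entry from blood.

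Cells with at least 200 detected genes numbered 4296 in Control and 4379 in SC300, with medians of 7986 and 8182 UMIs. Cells were assigned to types by marker genes, none of which was one of the 8 genes. The gates held 7959 cells (91.7%), and 716 cells entered no gate. The names used here stand for cells that are like the named type by those markers. The gates held 1250 Control and 1384 SC300 astrocytes, 452 and 441 neurons, 437 and 434 microglia, 376 and 466 mature oligodendrocytes, 366 and 336 endothelial cells, 360 and 359 oligodendrocyte precursors, 263 and 158 tanycytes, 138 and 143 newly formed oligodendrocytes, 102 and 118 mural cells, 87 and 61 erythroid cells and 69 and 60 ependymal cells. With only 15 and 40 macrophages and 11 and 33 stromal cells, these last types are given as levels and enter no count. The libraries shared 7 barcodes among the kept cells.

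Some gates also carried RNA of a neighbouring type. Tanycytes, which line the floor of the third ventricle, were held by *Crym* (2625 CPM in Control and 3753 CPM in SC300, where CPM is the gene's UMIs per 1e6 UMIs of the type), *Frzb* (304 and 207 CPM) and *Lhx2* (281 and 253 CPM), while the classical tanycyte gene *Rax* stood at only 5.0 and 7.4 CPM. The remaining markers of their list were low too. These were *Col25a1* (9.66 and 7.39 CPM), *Scn7a* (9.66 and 19.4 CPM), *Gpr50* (0.62 and 0.39 CPM) and *Col23a1* (0.31 and 0 CPM). All 7 ependymal markers in the files were detected in them, with a summed level of 2305 and 2301 CPM, against 7215 and 7764 CPM in ependymal cells. Mural cells carried the 7 endothelial markers at 6547 and 6484 CPM, against 10823.5 and 10551 CPM in endothelial cells. Haemoglobin made up 4.98% and 5.19% of the UMIs of endothelial cells, and 3.52% and 4.13% of those of mural cells. The part of this shared RNA in the values below was not tested except where a value is given.

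*Fth1* was highest in ependymal cells, the ciliated lining of the ventricles. It stood there at 16630.0 CPM (95% interval 16466 to 16796) in Control and 13577 CPM (13396 to 13759) in SC300. Ependymal cells thus led in both libraries, with macrophages (11166 and 9645 CPM), tanycytes (10657 and 6115 CPM), microglia (7586 and 7870.4 CPM), stromal cells (6201 and 5883 CPM) and mature oligodendrocytes (5699 and 5459 CPM) next. In the Control order, astrocytes (4808 and 3267 CPM), mural cells (3978 and 3467 CPM), endothelial cells (3680.1 and 3474 CPM), neurons (2764 and 2571 CPM) and erythroid cells (2337 and 1974 CPM) came after them. In SC300 astrocytes stood below mural and endothelial cells, whose intervals overlapped. The lowest types of the 11 with at least 50 cells in each library were the oligodendrocyte precursors, at 1390.2 and 1355 CPM. The highest of these types was 12.0 times the lowest in Control and 10.0 times in SC300. Tanycytes and microglia changed places between the libraries, and newly formed oligodendrocytes (1472 and 1507 CPM) lay next above the precursors in both, with overlapping intervals in Control only.

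*Ftl1* had another order. Microglia led the types with at least 50 cells, with 4331 CPM in Control and 4864 CPM in SC300, and the few macrophages stood higher still at 6328 and 7935 CPM. Mature oligodendrocytes followed with 2755 and 2787 CPM, then erythroid cells with 2156 and 2332 CPM and newly formed oligodendrocytes with 2131 and 2099.7 CPM, a pair whose intervals overlapped in Control and not in SC300. Ependymal cells, first for *Fth1*, were among the lowest for *Ftl1* with 426 and 561 CPM, beside astrocytes (472 and 464 CPM) and neurons (464 and 535 CPM). The erythroid level of *Ftl1*, and of each of the other iron handling genes, is diluted by haemoglobin, which made up 81.8% and 80.8% of erythroid UMIs. When mitochondrial, haemoglobin and ribosomal protein genes were left out of the totals, erythroid cells had the highest *Ftl1* level of the 11 types in both libraries.

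**Figure D1:**
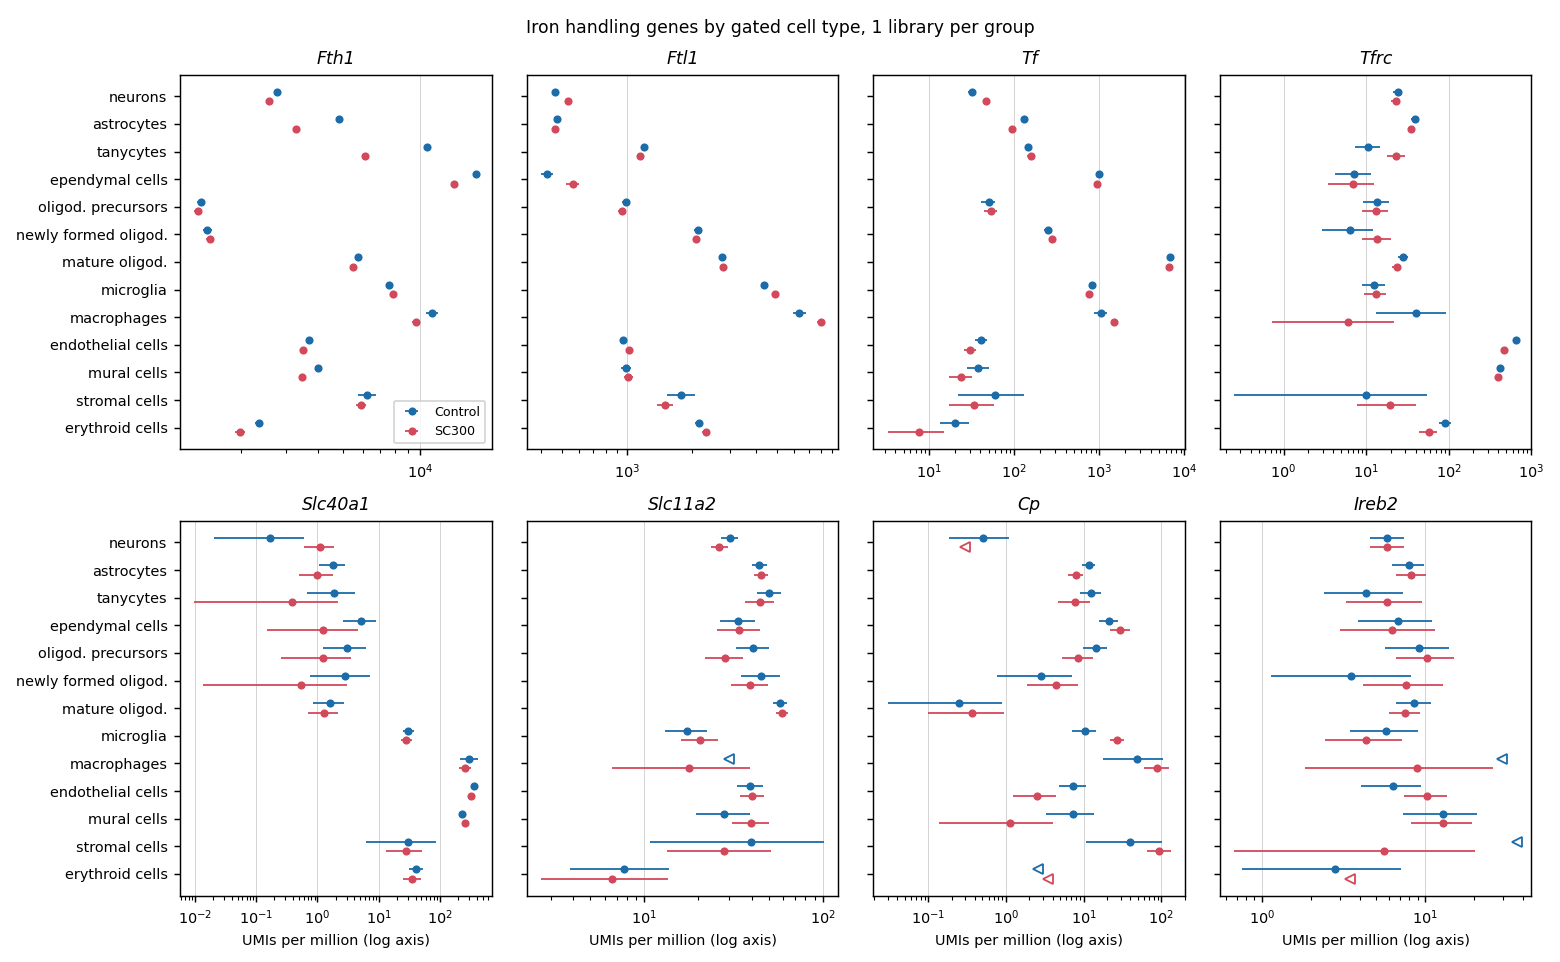
CPM of each iron handling gene (log axis, a scale of its own in each panel) by gated cell type in the Control library (blue) and the SC300 library (red), with 95% Poisson intervals as bars. Open triangles mark the upper limit where 0 UMIs were counted. *Tf* is highest in mature oligodendrocytes, at 6829 and 6493 CPM, and *Tfrc* and *Slc40a1* are highest in endothelial cells, at 656 and 468 CPM and at 364 and 319 CPM.

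The balance of the 2 ferritin chains differed widely between types, with a span over the 11 types of 56.6-fold in Control and 33.7-fold in SC300. The number of *Fth1* UMIs per *Ftl1* UMI, a quotient that compares types but not the true amounts of the 2 chains, was 39.1 (36.7 to 41.6) in Control ependymal cells and 0.691 (0.653 to 0.731) in Control newly formed oligodendrocytes. In SC300 the same types were the extremes, with 24.2 (22.6 to 25.9) and 0.718 (0.683 to 0.754). Along the oligodendrocyte lineage the quotient was 1.41 and 1.43 in precursors, dipped in newly formed cells and stood at 2.07 and 1.96 in mature cells. Newly formed cells had *Fth1* close to that of precursors (1472 against 1390.2 CPM in Control), whereas their *Ftl1* was 2131 against 989 CPM. The fall from precursors thus lay in the light chain. From newly formed to mature cells *Fth1* went from 1472 to 5699 CPM in Control and *Ftl1* from 2131 to 2755 CPM. That rise lay mostly in the heavy chain. Microglia had 1.75 and 1.62, and erythroid cells 1.08 and 0.846.

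The quotient was lower in SC300 in 9 of 11 types, and in these 9 the intervals of the 2 libraries did not overlap. It went from 10.2 to 7.05 in astrocytes, from 8.85 to 5.28 in tanycytes, from 39.1 to 24.2 in ependymal cells and from 5.96 to 4.81 in neurons. In oligodendrocyte precursors and newly formed oligodendrocytes it was slightly higher in SC300, with overlapping intervals. The medians over single cells with at least 10 UMIs of the 2 genes gave the same picture in the ventricular types and astrocytes, with 10.0 and 6.80 in astrocytes, 7.85 and 4.85 in tanycytes and 36.1 and 23.7 in ependymal cells.

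**Figure D2:**
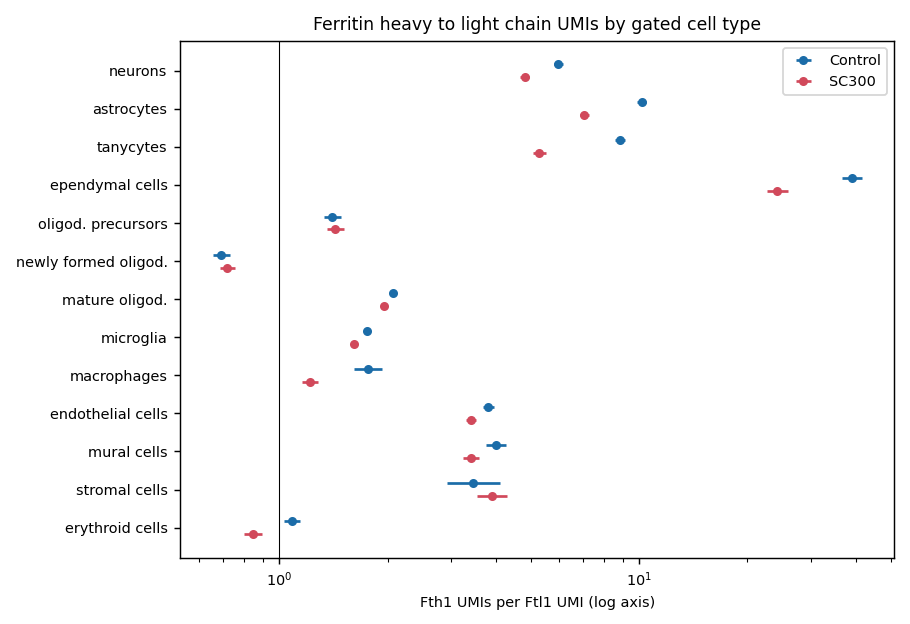
*Fth1* UMIs per *Ftl1* UMI (log axis) by gated cell type in Control (blue) and SC300 (red), with 95% binomial intervals as bars and a line at 1. Ependymal cells lie at 39.1 and 24.2, newly formed oligodendrocytes at 0.691 and 0.718.

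Ferritin counts carry an uncertainty of mapping. The rat genome has many processed copies of both genes: RefSeq lists 5 pseudogenes and 1 protein-coding relative named after *Fth1*, and 15 pseudogenes and 6 protein-coding relatives named after *Ftl1*, none of which is named in the files. LOC100360087 is a further protein-coding gene, for which RefSeq gives *Ftl1* as a synonym, and it is in the files with 12883 UMIs in Control and 18066 in SC300. Its UMIs per 100 *Ftl1* UMIs ran only from 17.2 to 19.8 over the 13 types in Control and from 19.7 to 23.2 in SC300. How reads were split between these genes was not tested. With LOC100360087 counted as light chain, the quotient of *Fth1* to light chain UMIs still spanned 56.2-fold over the 11 types in Control and 34.1-fold in SC300, against 56.6-fold and 33.7-fold without it.

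*Fth1* was lower in SC300 in the cells that line the ventricle and in astrocytes. In tanycytes there were 34191 UMIs in Control and 15731 in SC300, and the level was 0.57 times that of Control (log2 ratio -0.80, interval -0.83 to -0.77), the only *Fth1* value past 1.5-fold in the 11 types. Astrocytes came close to that size at -0.56 (-0.58 to -0.54), from 47950 and 35776 UMIs. They passed it, at -0.59, when cells above 20% mitochondrial UMIs were left out. The astrocyte value moved away from it, to -0.51 (-0.53 to -0.49), without the 5 cells of each library with most *Fth1* UMIs. Ependymal cells, whose median depth was 26066 UMIs in Control and 14682 in SC300, held 39104 and 21594 *Fth1* UMIs, which gave -0.29 (-0.32 to -0.27). Of these UMIs, 5 cells held 22.9% in Control and 37.3% in SC300. Without those cells the ependymal value was -0.45 (-0.48 to -0.42). In the remaining types the log2 ratio ran from -0.24 in erythroid cells to 0.05 in microglia, and *Fth1* was below Control in 9 of the 11. The median log2 ratio of all entered genes was itself below 0 in most types, as in neurons (-0.06) and microglia (-0.04). In the other types with lower *Fth1*, 20.3% to 46.2% of entered genes had a lower log2 ratio than *Fth1*, but only 2.54% had in astrocytes and 4.12% in tanycytes. A lower *Fth1* in such cells was known from earlier results of these data when the genes were listed, so its direction here is not independent evidence.

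Single cells showed the same difference. The median tanycyte had 95.1 *Fth1* UMIs per 10000 of its UMIs in Control and 50.1 in SC300, with 46.2 to 166 and 29.9 to 88.2 between the 10th and 90th percentiles. The Control median thus lay above the 90th percentile of SC300. Median astrocytes had 28.1 and 22.5, with 90th percentiles of 62.3 and 42.8, so that the libraries were farther apart among the astrocytes with most *Fth1*. In ependymal cells the medians were 152.5 and 122. Microglia, with medians of 72.2 and 74.5, and oligodendrocyte precursors, with 13.5 and 12.5, lay close together.

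**Figure D3:**
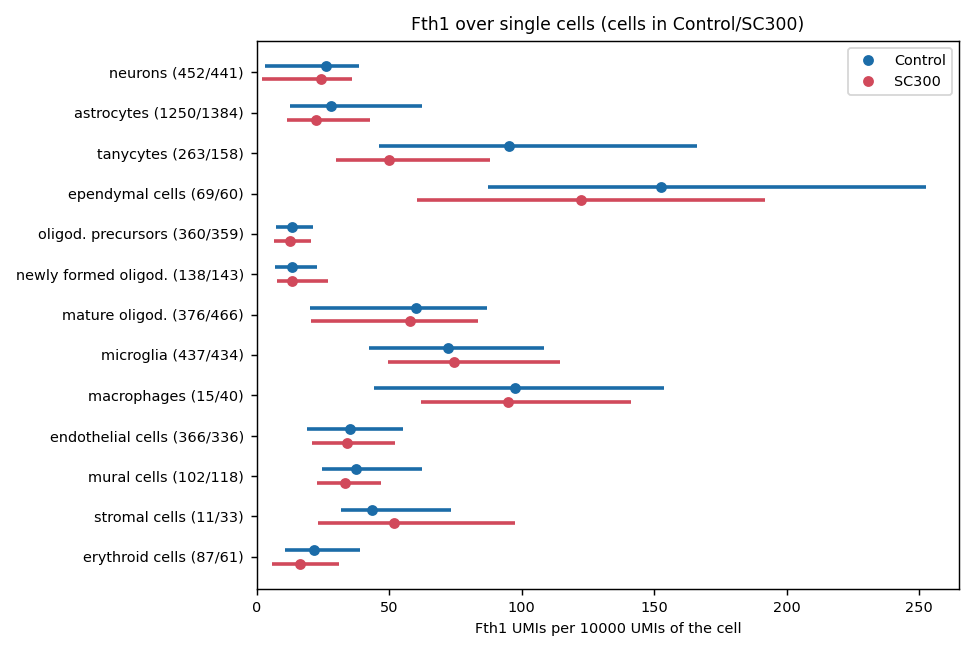
*Fth1* UMIs per 10000 UMIs of a cell by gated type in Control (blue) and SC300 (red). Points are medians over cells and bars run from the 10th to the 90th percentile, with the numbers of Control and SC300 cells in brackets. The median tanycyte lies at 95.1 in Control and 50.1 in SC300, the median microglial cell at 72.2 and 74.5.

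The size of the difference in the ventricular lining varied with the ependymal RNA in the cell. Tanycytes with under 10 ependymal marker UMIs per 10000 UMIs, 28 in Control and 14 in SC300, had 9494 and 7327 CPM, which is 0.77 times Control and not past 1.5-fold. From 10 to 20 such UMIs the fold was 0.64 (85 and 43 cells), from 20 to 30 it was 0.57 (91 and 66 cells) and from 30 to 50 it was 0.49 (59 and 35 cells). Above the limit of 50 that separated ependymal cells from tanycytes, it was 0.82 between 50 and 100 (65 and 57 cells). All 5 of these groups were lower in SC300, as were the 4 and 3 cells above 100. There were 42 cells within 10 UMIs of the limit.

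*Ftl1* passed 1.5-fold in none of the 11 types. Its largest log2 ratio was 0.40 (0.27 to 0.53) in ependymal cells, on 1001 and 892 UMIs. Neurons followed with 0.21, microglia with 0.17 and erythroid cells with 0.11, and tanycytes stood at -0.06 (-0.13 to 0.01). With LOC100360087 counted in, ependymal cells had 0.41, neurons 0.24 and microglia 0.19.

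*Tf*, the iron carrier, belonged to mature oligodendrocytes. They held 86.5% of all *Tf* UMIs in Control and 89.6% in SC300, at 6829 CPM (6772 to 6886) and 6493 CPM (6445 to 6541). This was 6.91 and 6.86 times the level of ependymal cells, the next of the 11 types, which had 989 and 947 CPM. Within the lineage the level was 49.8 and 53.2 CPM in precursors, 247 and 277 CPM in newly formed cells, both far below mature cells. Microglia had 822 and 762 CPM, and macrophages 1047 and 1499 CPM. The remaining types ranged from 145.6 and 157 CPM in tanycytes down to 20.2 and 7.5 CPM in erythroid cells.

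In droplet data free RNA of an abundant type can be counted in other cells, so *Tf* was set against the markers of mature oligodendrocytes. Mature oligodendrocytes had 49.9 and 44.8 *Tf* UMIs per 100 UMIs of their 8 markers. Microglia had 289 and 266, macrophages 1083 and 2096, and ependymal cells 2981 and 688, all above the quotient of the oligodendrocytes. The macrophage values rested on 12 and 24 marker UMIs, the ependymal ones on 78 and 219. Tanycytes (492 and 476), astrocytes (192 and 124) and oligodendrocyte precursors (131 and 126) lay above the oligodendrocyte quotient too, so the measure did not single out microglia. Endothelial cells, at 118 and 88.7, and mural cells, at 97.9 and 77.8, also lay above it, but on 42 to 154 *Tf* UMIs. Neurons lay above it in Control (92.9), but in SC300 (42.6) their interval of 38.5 to 46.9 held it. The intervals of stromal cells in both libraries and of SC300 erythroid cells, on 6 to 12 *Tf* UMIs, held it too. Newly formed oligodendrocytes lay below it in both, with 351 and 507 *Tf* UMIs beside 2343 and 4606 marker UMIs. The quotient of free RNA itself was not measured, and whether the *Tf* UMIs of these types were free RNA was not tested.

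*Tf* was detected in 96.6% of Control and 98.6% of SC300 microglia, at median depths of 7370 and 7896 UMIs. With every cell thinned to 2000 UMIs the shares were 77.2% and 77.7%. In endothelial cells, of like depth (6898 and 8376 UMIs), the unthinned shares were 29.2% and 25.6%, and the thinned ones 9.25% and 5.31%. The erythroid cells, at 15775 and 16331 UMIs, gave 10.3% and 8.20%. Haemoglobin made up 81.8% and 80.8% of the erythroid UMIs, and the median erythroid cell had 318 and 317 detected genes, so their depth for other genes was far lower.

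Between the libraries, *Tf* in mature oligodendrocytes differed by a log2 ratio of -0.07 (-0.09 to -0.06). The 1 *Tf* value past 1.5-fold was in mural cells, with 47 and 42 UMIs and -0.68 (-1.31 to -0.04). This value hung on few cells, since 5 cells held 46.8% of the Control UMIs, and it was -0.21 without the 5 cells of each library with most *Tf*. Astrocytes had 1283 and 1019 UMIs and -0.47 (-0.59 to -0.35). Neurons had 377 and 577 UMIs and 0.56 (0.37 to 0.75), but 5 SC300 neurons held 46.4% of the UMIs and the value was -0.20 without the top 5 cells of each library. The SC300 neurons also carried more mature oligodendrocyte marker RNA, 109 CPM against 33.9 CPM.

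*Tfrc*, the receptor for transferrin, was a gene of the vessels. Endothelial cells had 656 CPM (631 to 682) in Control and 468 CPM (448 to 488) in SC300 and held 55.1% and 50.2% of its UMIs. Mural cells were next with 427 and 401 CPM, followed by erythroid cells with 91.3 and 57.2 CPM, astrocytes with 39.2 and 35.4 CPM and mature oligodendrocytes with 28.1 and 23.7 CPM. Neurons had 24.1 and 22.9 CPM, and intervals of the types below them largely overlapped. Per 100 UMIs of the 7 endothelial markers, *Tfrc* had 6.06 UMIs in Control endothelial cells and 6.51 in Control mural cells, with overlapping intervals. In SC300 the quotients were 4.43 and 6.18, with intervals that did not overlap.

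Endothelial *Tfrc* fell short of the 1.5-fold size, with -0.49 (-0.57 to -0.40) from 2494 and 2058 UMIs. It was -0.46 without the top 5 cells of each library. Of the endothelial cells, 90.2% had a *Tfrc* UMI in Control and 87.2% in SC300. In tanycytes the receptor went the other way, from 34 to 60 UMIs (10.6 and 23.3 CPM), a log2 ratio of 1.14 (0.51 to 1.79). There, 23 of 263 Control and 33 of 158 SC300 cells had a *Tfrc* UMI, or 8.75% (5.62 to 12.8) and 20.9% (14.8 to 28.1). After thinning to 2000 UMIs the shares were 1.57% and 5.77% with overlapping intervals. The SC300 tanycytes carried less endothelial marker RNA than the Control ones, 11.3 against 41.5 CPM, and at 11239 UMIs their median depth was close to the 10497 UMIs of Control. In erythroid cells *Tfrc* had 131 and 61 UMIs and -0.67 (-1.14 to -0.23), with 63.4% and 70.5% of the UMIs in 5 cells of each library. Erythroid cells also held endothelial markers at 1154 and 1152 CPM, and *Tfrc* per 100 of these marker UMIs was 7.91 (6.57 to 9.46) and 4.96 (3.77 to 6.42), beside 6.06 and 4.43 in endothelial cells. The part of that RNA in the erythroid value was not tested.

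*Slc11a2*, the endosomal iron transporter, was low and spread over many types. Mature oligodendrocytes led with 57.9 CPM (52.8 to 63.4) and 59.2 CPM (54.7 to 63.9), the interval lying above those of the other 10 types in SC300 and overlapping those of tanycytes (50.2 and 44.3 CPM) and newly formed oligodendrocytes (45.1 and 39.3 CPM) in Control. Most neighbours in the order could not be told apart. Microglia had 17.3 and 20.6 CPM and erythroid cells, whose levels are diluted by haemoglobin, 7.67 and 6.56 CPM, the low end of the 11 types. Of its 10 values, none passed 1.5-fold, and 9 intervals held 0. The exception was oligodendrocyte precursors, with 93 and 69 UMIs and -0.52, whose interval ended at -0.06.

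Of the export genes, *Slc40a1* was high in few types. Endothelial cells had 364 CPM (345 to 383) in Control and 319 CPM (302 to 336) in SC300, mural cells 230.1 and 261 CPM and macrophages 298 and 256 CPM. Endothelial cells held 65.9% and 62.4% of its UMIs, and mural cells 13.7% and 20.6%. Erythroid cells (41.1 and 35.6 CPM) and microglia (30.7 and 28.4 CPM) came next, and every remaining type with at least 50 cells lay at or below 5.10 CPM. Neurons, on 2 and 14 UMIs, stood at 0.167 and 1.13 CPM. Per 100 endothelial marker UMIs, *Slc40a1* had 3.36 and 3.02 UMIs in endothelial cells, 3.51 and 4.02 in mural cells and 3.56 and 3.09 in erythroid cells, but 51.0 and 39.0 in microglia. Among the 4 types it could be compared in, no value passed 1.5-fold, and the log2 ratios ran from -0.21 to 0.18. The lowest was that of erythroid cells, where 5 cells held 62.7% of the UMIs in Control and 86.8% in SC300, and it was -1.65 (-3.40 to -0.21) without them, on 22 and 5 UMIs.

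The share of cells with a *Slc40a1* UMI was 82.8% and 82.1% in endothelial cells and 19.9% and 17.3% in microglia. In oligodendrocyte precursors, at median depths of 6390.0 and 6804 UMIs close to those of endothelial cells and microglia, it was 1.94% and 0.836%. Of astrocytes, at median depths of 6328 and 6541 UMIs, 99.1% and 99.3% had no *Slc40a1* UMI. Whether the UMIs in these types were free RNA was not tested.

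*Cp*, the ceruloplasmin gene, was sparse, with 345 and 372 UMIs in all. The highest levels were in the stromal cells (39.8 and 94.8 CPM) and macrophages (48.3 and 89.4 CPM), on 4 to 34 UMIs each. Of the types with at least 50 cells, ependymal cells had most, with 21.3 and 29.5 CPM. Oligodendrocyte precursors (14.4 and 8.60 CPM), tanycytes (12.5 and 7.77 CPM) and astrocytes (11.6 and 7.94 CPM) followed in Control with overlapping intervals, and microglia came second in SC300. Neurons had 6 and 0 UMIs, and erythroid cells had none in either library, for which the interval's upper limits are 2.57 and 3.46 CPM.

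The largest fold difference among the 64 ratios of the 8 genes was that of *Cp* in microglia. There it had 34 UMIs in Control and 94 in SC300, or 10.3 CPM (7.15 to 14.4) and 27.3 CPM (22.0 to 33.4), 2.64 times Control (log2 ratio 1.40, interval 0.82 to 2.01). Of the 7119 genes entered in microglia, 99.8% had a lower log2 ratio. The UMIs were spread over many cells: 33 of 437 Control microglia (7.55%, 5.25 to 10.4) and 82 of 434 SC300 microglia (18.9%, 15.3 to 22.9) had at least 1, and no cell had more than 4. Thinned to 2000 UMIs, the shares were 1.18% and 4.98%, and their intervals still did not overlap. In mature oligodendrocytes, a type low in *Cp*, 0.532% and 0.858% of cells had a *Cp* UMI, at median depths of 19972 and 20883 UMIs. Control microglia did not stand apart from other glia. No *Cp* UMI was found in 92.4% of them, 92.1% of Control astrocytes and 91.4% of Control oligodendrocyte precursors. In SC300 these shares were 81.1%, 94.2% and 94.2%. In ependymal cells 59.4% and 56.7% had none.

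Without the top 5 cells of each library the *Cp* ratio in microglia was 1.47. In Control and SC300 microglia 4 of 8 macrophage markers were at 0 and their sum stood at 286 and 251 CPM, and the sum of the 8 stromal markers at 3.95 and 6.67 CPM. The *Cp* values past 1.5-fold in the lower direction had wide intervals: tanycytes, on 40 and 20 UMIs, had -0.68 (-1.53 to 0.13), and oligodendrocyte precursors, on 33 and 21 UMIs, had -0.75 (-1.61 to 0.09). Astrocytes, with 116 and 87 UMIs, had -0.55 (-0.97 to -0.14).

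*Ireb2*, the iron sensor, was low in every type. Among the 11 types its level ran from 2.79 CPM in erythroid cells to 12.8 CPM in mural cells in Control, and up to 12.9 CPM in mural cells in SC300, and nearly all neighbouring intervals overlapped. The erythroid level rested on 4 and 0 UMIs and is diluted by haemoglobin. With mitochondrial, haemoglobin and ribosomal protein genes left out of the totals, erythroid cells had the highest Control level of *Ireb2*. In endothelial cells its 24 and 45 UMIs gave 0.70 (-0.05 to 1.47) on the log2 scale, past 1.5-fold with an interval that held 0. Neurons (70 and 73 UMIs), astrocytes (79 and 90 UMIs) and mature oligodendrocytes (69 and 81 UMIs) had log2 ratios from -0.19 to 0.05.

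**Figure D4:**
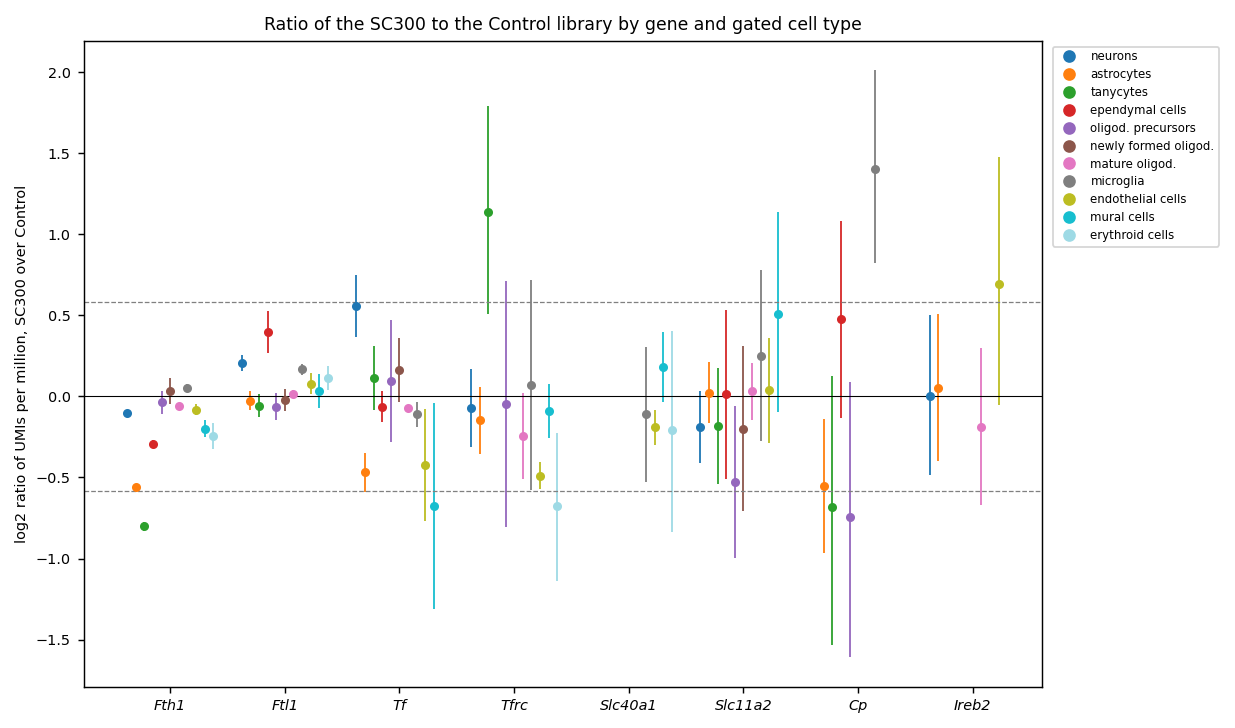
Log2 ratio of CPM, SC300 over Control, for each iron handling gene in each type in which it had at least 50 UMIs over both libraries, with 95% binomial intervals as bars. The dashed lines mark 1.5-fold. Of 64 values, 3 lie above the upper line (*Tfrc* in tanycytes, *Cp* in microglia, *Ireb2* in endothelial cells) and 5 below the lower one.

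In all, 64 pairs of a gene and a type had the 50 UMIs needed, and 8 of them (12.5%) lay past 1.5-fold, 3 higher and 5 lower in SC300. Over all genes of the files in the same 11 types, 7.31% of 81832 values were past 1.5-fold, 3.33% higher and 3.97% lower. The 8 genes had a median log2 ratio of -0.06. Of the 8 values, 5 were in intervals that left out 0: *Fth1* and *Tfrc* in tanycytes, *Cp* in microglia, *Tf* in mural cells and *Tfrc* in erythroid cells.

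By type, tanycytes had most of these values. Of 6 genes entered there, 1 was higher and 2 were lower, where 12.5% of all 8019 genes entered were past the size. In microglia it was 1 of 7 genes, beside 6.56% of all genes, in endothelial cells 1 of 7 beside 7.5%, in oligodendrocyte precursors 1 of 6 beside 4.56%, in mural cells 1 of 6 beside 8.37%, and in erythroid cells 1 of 4 beside 17.5%. None of the genes entered passed in neurons (6 genes, 6.34% of all genes), astrocytes (7 genes, 5.37%), ependymal cells (5 genes, 8.51%), newly formed oligodendrocytes (4 genes, 8.28%) or mature oligodendrocytes (6 genes, 5.12%). In the 6 types with a value past 1.5-fold it was 1 to 3 of 4 to 7 genes. With so few genes entered, 1 value alone puts a share above that of all genes, so the shares by type allow no comparison. Of the values past 1.5-fold, *Cp* in tanycytes, *Cp* in precursors and *Ireb2* in endothelial cells had intervals that held 0.

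The wider iron pathway was read from a list of 50 genes, of which 49 were in the files under the names used. Beside the 8 genes, 32 had at least 50 UMIs in some type, which gave 218 values with a median log2 ratio of -0.03. Past 1.5-fold were 20 (9.17%, against 7.31% of all genes), 2 higher (0.917%, against 3.33%) and 18 lower (8.26%, against 3.97%). The list was chosen with earlier results of these data known, and 1 gene can give values in several types. These shares are thus not independent evidence. The genes of haem metabolism gave 10 of the lower values out of 77, or 7 out of 71 without *Alas2*, an erythroid gene. Those of iron uptake gave 4 out of 18, those of mitochondrial iron 3 out of 71 and those of regulation 1 out of 28. Storage and export gave none out of 21 and 3. The 2 higher values were *Neo1*, a receptor that binds hemojuvelin, in newly formed oligodendrocytes and *Lcn2*, a carrier of bacterial iron chelators, in mural cells.

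Of these other genes, 9 values lay past 2-fold with an interval that left out 0, all lower in SC300. They were 4.13% of the 218 values, where 0.926% of all genes in the 11 types were lower by that rule. The share of all genes that were higher by it is not given. The 4.13% includes *Alas2* in neurons and in mature oligodendrocytes, in at most 3 cells of each library. The share without it is not given. *Hmox1*, the enzyme that frees iron from haem, went from 138 to 50 UMIs in tanycytes (43.0 and 19.4 CPM), or -1.15 on the log2 scale (-1.64 to -0.67). *Steap2*, a ferrireductase, and its relative *Steap1* were lower in ependymal cells, with 85 and 21 UMIs of *Steap1* (-1.45, -2.22 to -0.75) and 87 and 26 UMIs of *Steap2* (-1.18, -1.87 to -0.53). *Steap2* was also lower in tanycytes, with 45 and 12 UMIs (-1.59, -2.64 to -0.65). Tanycytes thus held 2 of the 9 values, from 19 entered, where 2.44% of all genes entered were lower by the same rule, and ependymal cells 2 from 19, where 0.97% were.

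The remaining 5 values lay in other types. *Slc39a8*, a metal importer, had 34 and 17 UMIs in microglia (-1.07, with an interval that ended at -0.19). *Flvcr2*, a transporter first described for haem, had 39 and 17 UMIs in newly formed oligodendrocytes (-1.57, -2.48 to -0.71), and *Blvra*, which reduces biliverdin, 36 and 21 UMIs in mural cells (-1.29, -2.14 to -0.48). *Alas2*, the erythroid enzyme of haem synthesis, was a listed erythroid marker, but the erythroid gate used haemoglobin alone. It had 46 and 23 UMIs in neurons and 110 and 18 in mature oligodendrocytes, all in at most 3 cells of each library. In astrocytes it had 50 and 28 UMIs, past 1.5-fold but not 2-fold (-0.97, -1.69 to -0.28). Haemoglobin moved with it, from 0.150% to 0.110% of UMIs in neurons, from 0.257% to 0.162% in astrocytes and from 0.571% to 0.116% in mature oligodendrocytes.

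Where the other pathway genes were highest varied from gene to gene. *Ncoa4*, the receptor that sends ferritin to the lysosome, was highest in macrophages with 169 and 283 CPM, as were *Heph*, a membrane ferroxidase (64.4 and 158 CPM), and *Hfe* (105 and 83.4 CPM). The macrophages numbered only 15 and 40 cells, and no intervals are given for these levels. *Slc39a8* (114 and 123 CPM), *Lcn2* (107 and 113 CPM) and *Steap3* (30.8 and 37.9 CPM) led in endothelial cells, where *Tfrc* and *Slc40a1* did. *Slc48a1*, a lysosomal haem transporter, was highest in mature oligodendrocytes with 1051 and 1066 CPM, and *Aco1*, the gene of iron regulatory protein 1, in astrocytes with 57.5 and 53.0 CPM.

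Over the 22 points given by 11 types in 2 libraries, the genes whose log2(CPM + 1) ran most like each of the 8 were listed as a description, from 10613 genes with at least 200 UMIs in each library. Types of 1 library share its preparation and depth, so the points are not independent. LOC100360087 (r = 0.99), *Fam83d* and *Rhog* (both 0.75) ran most like *Ftl1*, and AABR07054189.1, *Sort1* and *Aldh2* most like *Fth1* (r = 0.90, 0.86 and 0.83). The endothelial genes *Eng* and *Tek* and AC099444.2 stood first for *Slc40a1* (all r = 0.98), and LOC100911486, *Clic5* and *Adgrf5* for *Tfrc* (all r = 0.96). *Me2*, *Dip2b* and *Jpt2* ran most like *Tf* (r = 0.88, 0.84 and 0.81), *Tkt*, *Akt1s1* and *Tex264* like *Slc11a2* (0.94, 0.94 and 0.93), *Dnajc1*, *Nfatc1* and *Apobr* like *Cp* (0.90, 0.89 and 0.88) and *Zfp518a*, *Slc25a32* and *Ciz1* like *Ireb2* (0.91, 0.89 and 0.89). Among the 8 themselves, *Tfrc* and *Slc40a1* ran most alike (r = 0.81), followed by *Slc11a2* and *Ireb2* (0.69), while *Fth1* and *Ftl1* had r = -0.06.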

How the data were processed

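Single-cell 3′ libraries of rat hypothalamus were deposited by the authors as counts of UMIs per gene and barcode, made with Cell Ranger (3.0.1 per the submitters' processing notes) on an Ensembl rat transcriptome and not normalized. The 2 libraries held 52004789 (Control) and 57013099 (SC300) UMIs in 4488 and 4524 barcodes. Barcodes with at least 200 genes were kept. A cell entered a type when at least 3 markers of its group were detected and their summed level, scaled to its 90th percentile among such cells, was at least 2 times that of the next group. Within a group the highest type was taken. Ventricular cells with at least 50 ependymal marker UMIs per 10000 were called ependymal, and others with a tanycyte marker tanycytes. Cells with at least 50% haemoglobin were called erythroid. No doublet caller was run. Doublets were addressed by the margin between groups and, as an alternative, by leaving out cells above 2 times the median UMIs. The margin did not act within a group, nor between erythroid and other RNA, where the haemoglobin limit alone decided. Endothelial and mural cells shared a group, as did tanycytes and ependymal cells, microglia and macrophages, and the oligodendrocyte lineage.

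UMIs were summed per type and library and divided by the type's total (CPM). Poisson, Clopper-Pearson and conditional binomial 95% intervals were computed in Python (3.11.15) with scipy (1.17.1). A gene entered a ratio with at least 50 UMIs over both libraries. A count of 0 was set to 3 UMIs in ratios over all genes. The scripts were tested on simulated data. The 8 genes, the lists and the rules (all 8 genes, other pathway genes past 2-fold, 3 similar genes each) were chosen with earlier results of these data known. The alternatives of the closing section changed 1 choice each. No genome of the files' build was used, and no positions or sequences are given.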

Additional observations from a re-analysis of the deposited data

Results flagged for a closer look

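*Tfrc* was past 1.5-fold in opposite directions in different types, with intervals that left out 0 in both: the log2 ratio of SC300 over Control was 1.14 in tanycytes (34 and 60 UMIs) and -0.67 in erythroid cells (131 and 61 UMIs). With 1 library per group the difference between these types was not tested. In erythroid cells 5 cells held 63.4% of the UMIs in Control and 70.5% in SC300, and without the top 5 cells of each type and library the values were -0.95 in erythroid cells and 1.55 in tanycytes. Erythroid cells carried endothelial markers at 1154 and 1152 CPM, and *Tfrc* per 100 of those marker UMIs was 7.91 and 4.96 there, against 6.06 and 4.43 in endothelial cells. The part of that RNA in the erythroid value was not tested.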

How the results depend on the processing

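Of the 8 values of the iron handling genes past 1.5-fold, none changed direction under any alternative that gave a value. In 70 recomputed values, 66 stayed within the counting interval and 66 stayed past 1.5-fold. The 4 not past 1.5-fold were *Fth1* in tanycytes of low ependymal RNA, *Tfrc* in erythroid cells without cells above 2 times the median UMIs (-0.52) and *Tf* in mural cells (-0.20 with every cell weighted alike, -0.21 without the top 5 cells). The 4 outside the counting interval were all *Fth1* in tanycytes. They came from median-of-ratios scaling, from totals without mitochondrial, haemoglobin and ribosomal protein genes, from weighting every cell alike and from cells of low ependymal RNA. *Fth1* in tanycytes ran from -0.84 to -0.76 over the other settings of cells, gates and scaling and was -0.37 in cells under 10 ependymal marker UMIs per 10000, an alternative chosen after seeing the data, as were those without the top 5 cells and with LOC100360087.

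The count of 8 of 64 values depended on the size rules. It was 3 of 55 with at least 100 UMIs, 20 of 85 with no minimum (at least 1 UMI in each library) and 2 of 64 at 2-fold. For the other pathway genes the count of 20 was 36 with at least 20 UMIs, 12 with at least 100 UMIs, 9 at 2-fold and 17 of 212 without *Alas2*, the last also chosen after seeing the data. The share of all genes under the other limits of UMIs and size is not given here, so these counts are not set against a background. The span of *Fth1* per *Ftl1* UMI over types in SC300, 33.7-fold, was 27.4-fold without cells above 2 times the median UMIs. The share of cells with a UMI was apart between the libraries in 5 of 88 pairs of gene and type as counted and in 2 after thinning, of which *Cp* in microglia was apart both times. How often this held over all genes is not given here, so it does not show whether these 8 genes differ more than others. The leading type of each gene in each library was the same in at least 13 of 16 cases under the alternatives of gates, cells and totals. Median-of-ratios scaling shifted no type by more than 0.08 in log2. Each group was 1 library from its own pool of rats. Replicates thus could not be left out in turn, and no paired analysis was possible.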

Other observations

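Cells that entered no gate (370 in Control and 346 in SC300) had 154 CPM of *Tfrc* in Control and 64.3 CPM in SC300, and 78.7 and 42.6 CPM of *Slc40a1*. Their median mitochondrial share was 17.1% and 32.7%.

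In neurons above 20% mitochondrial UMIs (137 and 139 cells), *Fth1* stood at 1109 and 1536 CPM, against 2981 and 2714 CPM in the other neurons, and the median depth was 8128 and 7622 UMIs against 31136 and 31977. In tanycytes the order was the other way, with 15243 and 10880 CPM in 19 and 12 cells above 20% and 10351 and 5946 CPM in the rest.

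The 192 and 145 barcodes under 200 genes held 1370.2 and 1098 CPM of *Fth1* and 920.5 and 1039 CPM of *Ftl1*. They had 19.3 and 25.7 CPM of *Tf*, on 12 and 16 UMIs. Their 622513 and 622744 UMIs came from few genes per barcode. Which genes filled them was not examined, and whether this was free RNA was not tested.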
